A study of Homo sapiens with 18 samples.

Results

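The HOX genes are the 39 protein-coding genes of the HOXA, HOXB, HOXC and HOXD clusters, taken as every row of the deposited expression table whose symbol is HOX, a cluster letter and a paralog number. They made up 39 of the 26372 gene symbols, with 11 in HOXA, 10 in HOXB, 9 in HOXC and 9 in HOXD. RNA-seq was done on SH-SY5Y, an established human neuroblastoma line, infected with lentivirus carrying ZNHIT3, which takes part in building snoRNPs, the RNA-protein particles that modify ribosomal RNA. The constructs carried wild-type ZNHIT3 (WT), the C14R substitution (C14R) or a deletion, whose treatment label runs from position 251 to 254, 255 or 256 in the 3 replicates. Each was sequenced at day 0 and at day 18 of differentiation in serum-free neurobasal/B27 medium with BDNF, KCl, dibutyryl cyclic AMP and all-trans retinoic acid, with 3 libraries in each of the 6 groups. All 6 groups were infected with a ZNHIT3 construct, a group without virus was not analysed here, and the labels do not say whether the line's own ZNHIT3 was still expressed. The labels do not say whether replicates were separate cultures, so p-values measure the spread between these libraries, which may be technical.

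HOX genes encode homeodomain transcription factors that give cells their position along the head-to-tail axis. Within a cluster the genes lie in the order of their paralog numbers, and low numbers act in the hindbrain and neck while high numbers act in the lower trunk, tail and limbs. Retinoic acid is a classical inducer of HOX genes, with the low-numbered end of a cluster responding first in embryonal carcinoma cells. Neuroblastoma arises in the sympathetic lineage of the trunk neural crest, and HOXC9 has been described as a mediator of its response to retinoic acid.

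SH-SY5Y cells expressed HOXC and HOXD genes and almost no HOXA or HOXB genes. Levels are in FPKM, fragments scaled to transcript length and library size, so they can be compared between genes. Of the 39 HOX genes, 12 had a mean of at least 1 FPKM over all 18 libraries and entered the tests, 5 of them in HOXC and 7 in HOXD. The other 27 were not tested: 10 were listed at 0 in all libraries and 17 had a value above 0 in at least 1 library. All HOX genes together summed to 89.2 to 97 FPKM in the 9 libraries of day 0 and to 184.3 to 195.3 FPKM in the 9 of day 18, without overlap. HOXD genes held a median of 73.1% of that sum at day 0 and 78.1% at day 18. HOXC genes held 26.9% and 21.8%.

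**Figure D1:**
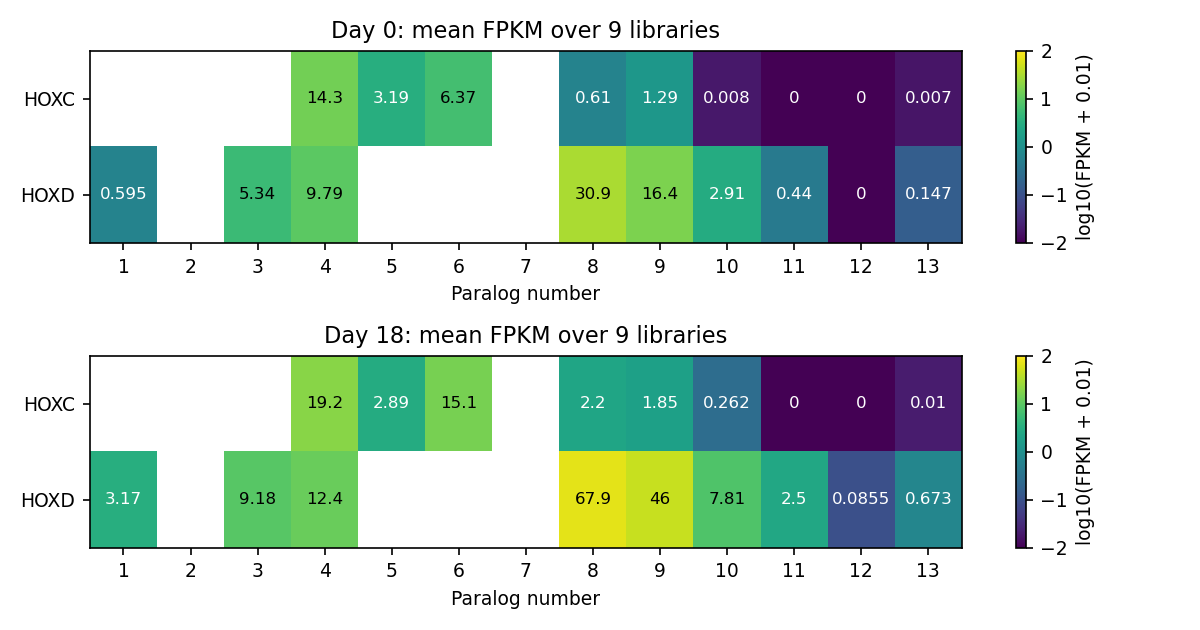
Mean FPKM of each HOXC (upper row) and HOXD (lower row) gene over the 9 libraries of day 0 and of day 18, by paralog number, printed in each cell and coloured by log10(FPKM + 0.01). White cells have no gene. HOXD8 and HOXD9 stood highest on both days, and HOXC11 and HOXC12 were listed at 0 throughout.

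Over the 12 tested genes, 11 rose in WT, 10 in C14R and 9 with the deletion, by limma with an adjusted p under 0.05, and 0 fell. Among all 13785 tested genes, 38.2% rose and 34% fell in WT, 37.9% and 35% in C14R, and 38.6% and 34.4% with the deletion. HOXC8, HOXD1 and HOXD11 had day 0 means under 1 FPKM and reached the filter through their day 18 values, so that they had to differ between the days to be tested. The median log2 difference of the 12 genes was 1.00 in WT, 1.03 in C14R and 1.01 with the deletion, against 0.03, 0.02 and 0.03 over all tested genes. Leaving small RNA genes out and rescaling moved the median of all genes to 0.21 in WT and that of the 12 HOX genes to 1.14. Without the filter, 15 of the 29 HOX genes with a value were higher in WT against 30.2% of all 21412 genes, 11 in C14R against 29.1% and 12 with the deletion against 30.2%.

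The sequences before the RefSeq starts of 3 HOXD genes are shown because all 3 genes rose over differentiation in each construct, while their levels differ widely. They are from RefSeq on GRCh38.p14, which holds windows of 250 bases before and 50 after a start for 20 of the 39 HOX genes and 8 of the 12 tested ones. The RefSeq starts of HOXD3 and HOXD11 lie inside the gene spans that GENCODE release 29 gives, whose first starts are farther upstream, so these stretches are not before the first start of that annotation. Shown is the part before the RefSeq start, without stretches that GENCODE release 29 annotates as UTR. Each is on the plus strand, 5′ to 3′, and capitals mark CACGTG or CCAAT, the latter also as its reverse complement ATTGG; the HOXD8 stretch holds neither. The HOXD3 stretch covers chr2:176157057-176157306, that of HOXD8 chr2:176129455-176129693 and that of HOXD11 chr2:176107030-176107279.
HOXD3: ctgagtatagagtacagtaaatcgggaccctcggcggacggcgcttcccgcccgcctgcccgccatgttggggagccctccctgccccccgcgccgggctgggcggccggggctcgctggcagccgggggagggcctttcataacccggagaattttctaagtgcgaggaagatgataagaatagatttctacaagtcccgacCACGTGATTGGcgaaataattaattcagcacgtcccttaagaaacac
HOXD8: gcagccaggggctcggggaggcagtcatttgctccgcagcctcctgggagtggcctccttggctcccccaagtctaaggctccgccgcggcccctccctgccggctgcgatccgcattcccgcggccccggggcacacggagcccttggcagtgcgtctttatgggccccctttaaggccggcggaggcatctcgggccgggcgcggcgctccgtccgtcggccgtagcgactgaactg
HOXD11: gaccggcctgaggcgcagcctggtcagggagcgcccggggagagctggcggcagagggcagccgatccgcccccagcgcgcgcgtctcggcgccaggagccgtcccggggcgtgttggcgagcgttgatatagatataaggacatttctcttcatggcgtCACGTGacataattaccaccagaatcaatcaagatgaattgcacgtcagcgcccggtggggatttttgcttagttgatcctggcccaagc

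CACGTG was found on either strand in 4 of the 7 windows of the tested HOX genes, in 5 of the 19 windows of the other HOX genes and in 7.23% of all 34943 RefSeq windows. The 4 were those of HOXD1, HOXD3, HOXD10 and HOXD11. All 4 copies lie inside the gene spans that GENCODE gives, so none is before the first start of that annotation. The copies of HOXD1 and HOXD10 also lie outside the part of their windows left after annotated UTR was removed. The 30 bases around each copy, with CACGTG in capitals, are shown so that their flanks can be compared.
HOXD1 (chr2:176188603-176188632): gccggccagcgcCACGTGgccgcccccgcc
HOXD3 (chr2:176157248-176157277): acaagtcccgacCACGTGattggcgaaata
HOXD10 (chr2:176116660-176116689): caggctctggagCACGTGacccgagaggag
HOXD11 (chr2:176107178-176107207): tcttcatggcgtCACGTGacataattacca
CCAAT was present in 5 of these 7 windows, in 12 of the 19 of the other HOX genes and in 34.6% of all. TATAAA was in 0 of the 7, in 5 of the 19 and in 11.6% of all. AGGTCA, one form of the half-site of retinoic acid receptors, was in 0 of the 26 HOX windows and in 13.8% of all. Its direct repeat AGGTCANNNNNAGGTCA was in 0 of the 26 and 2 of all. Other forms of the half-site, and sites outside these windows, were not searched for. TGATNNAT, a form of the site bound by HOX and PBX proteins together, was in 1 of the 7, in 2 of the 19 and in 7.42% of all. These are matches of letters in a short window, on both strands, for motifs chosen after the windows had been read; HOXC4 and HOXC5 share 1 window.

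HOXD8 and HOXD9, members of the middle of the cluster that are active in the trunk and spinal cord, were the highest HOX genes on both days. HOXD8 (GRCh38 chromosome 2, 176129694 to 176132695, plus strand) had 30.7, 32.5 and 31.4 FPKM in WT at day 0 and 65.4, 66.8 and 70.2 at day 18. With C14R the values were 32.7, 30.6 and 32.1 against 76.1, 70.1 and 64.3, and with the deletion 26.7, 30.0 and 31.4 against 67.3, 63.3 and 67.8. All 9 libraries of day 18 lay above all 9 of day 0, at 2.2 times their mean. On the log2(FPKM + 1) scale HOXD8 rose by 1.07 in WT (SE 0.06, limma adjusted p = 4.5e-11), by 1.11 in C14R (adjusted p = 2.8e-11) and by 1.15 with the deletion (adjusted p = 1.8e-11). It stood above 83.2% of tested genes at day 0 and above 93.8% at day 18.

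HOXD9 (chromosome 2, 176122720 to 176124937, plus strand), which acts in lumbar motor neurons, had 15.6, 17.3 and 16.7 FPKM in WT at day 0 and 50.2, 46.6 and 41.9 at day 18. C14R had 15.9, 17.5 and 17.3 against 38.4, 46.9 and 45.2, and deletion 17.1, 14.4 and 16.3 against 48.6, 47.1 and 49.0. The days did not overlap in any construct, with C14R replicate 1 the lowest library of day 18. HOXD9 rose by 1.43 in WT (SE 0.08, limma adjusted p = 2.6e-11), by 1.31 in C14R (8.5e-11) and by 1.54 with the deletion (9.1e-12). Together HOXD8 and HOXD9 were the only HOX genes above 30 FPKM in any library.

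**Figure D2:**
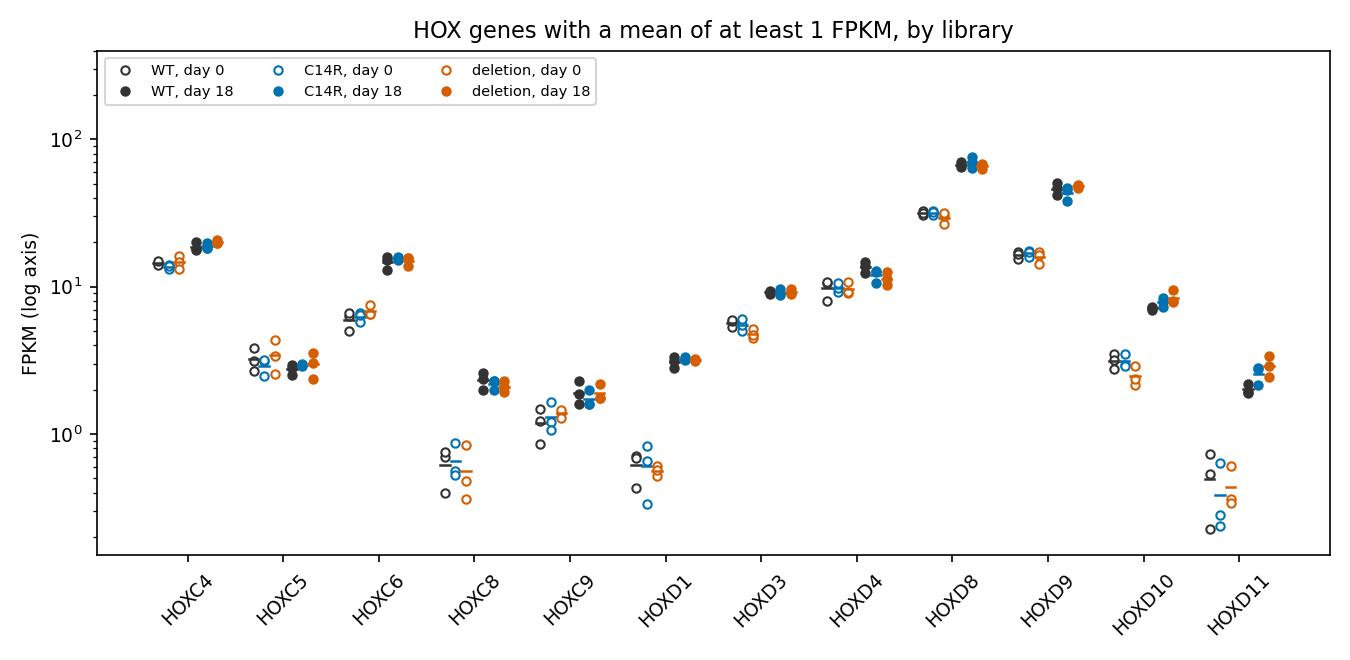
FPKM on a log axis of the 12 HOX genes with a mean of at least 1 FPKM, by library; open points are day 0, filled points day 18, colours the construct, and short lines the mean of 3 libraries. HOXD8 reached 63.3 to 76.1 FPKM at day 18, and the points of the 2 days overlap for HOXC5, HOXC9 and HOXD4.

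HOXD1 and HOXD11, toward opposite ends of the HOXD cluster, were low at day 0. Both were tested only because of their day 18 values, so their high ratios and small p-values describe genes that the filter had selected for a rise. HOXD1 (chromosome 2, 176188579 to 176190907, plus strand), the lowest-numbered HOXD gene, had 0.432, 0.713 and 0.692 FPKM in WT at day 0 and 3.33, 3.11 and 2.81 at day 18. C14R had 0.335, 0.66 and 0.828 against 3.36, 3.19 and 3.22, and deletion 0.61, 0.52 and 0.567 against 3.19, 3.25 and 3.11. Every library of day 18 was thus above every library of day 0, and the mean was 5.33 times higher. HOXD1 rose by 1.34 in WT (SE 0.1, limma adjusted p = 3.3e-09), by 1.42 in C14R (1.7e-09) and by 1.42 with the deletion (1.6e-09). This scale understates a change from such a level: with a pseudocount of 0.1 in place of 1 the 3 values were 2.18, 2.32 and 2.30. On the opposite strand, the annotated gene AC009336.3 shares 989 of the 1975 exonic bases of HOXD1, and the noncoding gene HAGLR shares 158. AC009336.3 is not among the deposited gene symbols, and the use of strand in counting is not given in the sources used here.

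HOXD11 (chromosome 2, 176104216 to 176109754, plus strand), a gene of the lumbosacral region and limb, had 0.225, 0.539 and 0.733 FPKM in WT at day 0 and 1.94, 2.18 and 1.91 at day 18. C14R had 0.64, 0.236 and 0.282 against 2.14, 2.81 and 2.76, and deletion 0.36, 0.339 and 0.61 against 2.89, 2.46 and 3.40. The means differed 5.68-fold without overlap, while single libraries of day 0 differed among themselves by more than those of day 18 in ratio. It rose by 1.02 in WT (SE 0.14, limma adjusted p = 5.1e-06), 1.37 in C14R (1.3e-07) and 1.45 with the deletion (6.5e-08). Its annotated exons share 452 bases with those of HOXD10 on the same strand, so fragments there could be assigned to either.

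HOXD10 (chromosome 2, 176108790 to 176119942, plus strand), which like HOXD9 acts in lumbar motor neurons, had 2.75, 3.51 and 3.20 FPKM in WT at day 0 and 7.15, 7.01 and 7.30 at day 18. C14R libraries had 2.94, 2.90 and 3.51 against 7.89, 7.33 and 8.33, and deletion libraries 2.15, 2.37 and 2.88 against 7.99, 7.84 and 9.44. The rise was 0.98 in WT (SE 0.09, limma adjusted p = 4.6e-08), 1.11 in C14R (8.7e-09) and 1.44 with the deletion (2.4e-10). Deletion libraries spanned the widest range, with the 2 lowest values of day 0 and the highest of day 18.

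HOXD3 and HOXD4, which act in the hindbrain and neck, changed less. On the same strand, the annotated gene AC009336.2 shares 2206 of the 3548 exonic bases of HOXD3 and 1178 of the 1464 of HOXD4. AC009336.2 is not among the deposited gene symbols, and how fragments there were assigned is not given in the sources used here. HOXD3 (chromosome 2, 176136612 to 176173102, plus strand) lay between 4.52 and 6.05 FPKM in the 9 libraries of day 0 (median 5.31) and between 8.78 and 9.64 at day 18 (median 9.06). It rose in each construct, by 0.61 in WT (SE 0.07, limma adjusted p = 2.8e-07), 0.63 in C14R (1.5e-07) and 0.82 with the deletion (5.2e-09). HOXD4 (chromosome 2, 176151222 to 176153226, plus strand) had 8, 10.6 and 10.8 FPKM in WT at day 0 and 12.5, 13.7 and 14.8 at day 18. C14R libraries had 9.19, 9.79 and 10.7 against 12.8, 12.7 and 10.6, and deletion libraries 9.10, 9.16 and 10.8 against 12.5, 11.3 and 10.3. The days overlapped in C14R and with the deletion. HOXD4 rose in WT by 0.45 (SE 0.11, limma adjusted p = 0.0011). The C14R rise was 0.26 (limma adjusted p = 0.037), and with the deletion the difference of 0.21 did not pass (adjusted p = 0.082). The C14R call was lost without filter (adjusted p = 0.061), with median-of-ratios scaling (0.067) and in 4 of the 6 fits that left out 1 of its libraries, namely C14R replicates 1 and 2 of either day (0.076 to 0.12). The deletion difference passed without deletion replicate 3 of day 0 (0.038) or of day 18 (0.044), and with only the 2 groups compared (0.0498).

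Among the 5 tested HOXC genes, HOXC6 and HOXC8 had the largest rises on the log2(FPKM + 1) scale, while in plain FPKM the mean of HOXC4 gained more than that of HOXC8. HOXC6 (chromosome 12, 53990624 to 54030823, plus strand), a gene of the forelimb and upper thoracic level, had 6.31, 5.01 and 6.61 FPKM in WT at day 0 and 15.3, 13.04 and 15.9 at day 18. C14R had 6.61, 5.77 and 6.42 against 15.9, 15.3 and 15.6, and deletion 7.54, 6.50 and 6.52 against 15.6, 15.6 and 13.7. Day 18 was 2.37 times day 0 without overlap. HOXC6 rose by 1.18 in WT (SE 0.09, limma adjusted p = 2.6e-09), 1.19 in C14R (2.2e-09) and 1.02 with the deletion (1.6e-08).

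HOXC8 (chromosome 12, 54009106 to 54012362, plus strand), which patterns brachial motor neurons, lay between 0.363 and 0.865 FPKM at day 0 (median 0.565) and between 1.93 and 2.59 at day 18 (median 2.28). It rose by 1.04 in WT (SE 0.12, limma adjusted p = 8.4e-07), 0.95 in C14R (2.3e-06) and 1.00 with the deletion (1.3e-06). HOXC8 too was tested only because of its day 18 values. It shares no annotated exon with another gene.

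HOXC4 (chromosome 12, 54016931 to 54056030, plus strand), the lowest-numbered HOXC gene, was the highest HOX gene outside HOXD. It had 14.4, 14.04 and 14.9 FPKM in WT at day 0 and 18.1, 20.1 and 17.9 at day 18, 13.1, 13.98 and 13.9 against 19.8, 18.5 and 18.2 in C14R, and 16.2, 14.6 and 13.2 against 19.8, 20.9 and 19.9 with the deletion. The days did not overlap. HOXC4 rose by 0.35 in WT (SE 0.06, limma adjusted p = 9.6e-05), 0.43 in C14R (8.8e-06) and 0.44 with the deletion (7.2e-06).

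HOXC5 (chromosome 12, 54032853 to 54035358, plus strand), a neck-level gene between HOXC4 and HOXC6, did not pass the test in any construct. It had 3.84, 3.14 and 2.69 FPKM in WT at day 0 and 2.80, 2.52 and 2.95 at day 18. C14R had 3.11, 2.47 and 3.16 against 3.004, 2.95 and 2.89, and deletion 3.39, 4.37 and 2.56 against 3.03, 3.53 and 2.36. The days overlapped in each construct. Log2 differences were -0.16 in WT (SE 0.14, limma adjusted p = 0.3), 0.02 in C14R (0.92) and -0.15 with the deletion (0.34). In C14R and with the deletion, but not in WT, the sign depends on the scaling. The annotation holds a second gene of the symbol HOXC5, whose exons share 1081 bases with the first. AC012531.2, on the same strand and not among the deposited gene symbols, shares 611 of the 1805 exonic bases of the first HOXC5 gene. HOXC4 and HOXC6 share 484 exonic bases with each other. Each shares 305 with the second HOXC5 gene, and no shared base is listed with the first. How the deposited values divide fragments between these genes is not given in the sources used here.

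HOXC9 (chromosome 12, 53994895 to 54003337, plus strand) had 1.48, 0.859 and 1.23 FPKM in WT at day 0 and 1.59, 1.86 and 2.28 at day 18. C14R libraries had 1.2, 1.06 and 1.64 against 1.60, 1.99 and 1.61, and deletion libraries 1.40, 1.46 and 1.29 against 1.76, 2.17 and 1.76. The days overlapped in C14R and not in the other constructs. HOXC9 rose in WT by 0.42 (SE 0.12, limma adjusted p = 0.0059). The differences of 0.25 in C14R (adjusted p = 0.076) and 0.28 with the deletion (adjusted p = 0.051) did not pass. The change was not shown to differ between constructs, with interactions of -0.17 (C14R, limma adjusted p = 0.96) and -0.14 (deletion, 0.93). Without C14R replicate 3 of day 0 the C14R difference passed (adjusted p = 0.023), and fitted on the 2 groups compared alone so did that of the deletion (0.025).

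**Figure D3:**
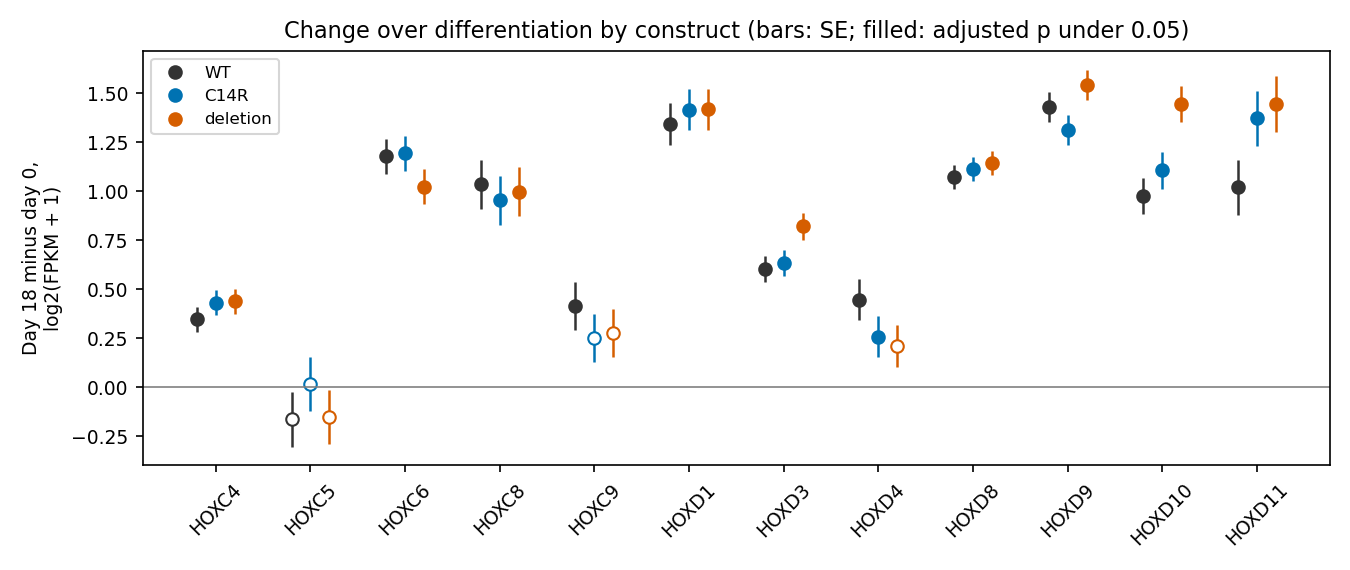
Difference between day 18 and day 0 on the log2(FPKM + 1) scale for the 12 tested HOX genes in each construct, with bars for the SE; filled points have a limma adjusted p under 0.05. The values run from -0.16 (HOXC5, WT) to 1.54 (HOXD9, deletion), and HOXC5 has 3 open points.

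Ratios between neighbouring HOX genes within a library do not depend on how libraries are scaled, and they show which FPKM values changed unequally. They can depend on how fragments of shared exons were divided, which is not given in the sources used here. HOXD10 and HOXD11 share 452 exonic bases, and HOXC4 and HOXC6 each share 305 with a second HOXC5 gene. HOXD3 and HOXD4 both overlap AC009336.2. The 10 ratios of tested neighbours were compared between the days by an exact two-sided permutation test within constructs, for which 0.00025 is the smallest p that 8000 relabelings can give. This test was added after the values had been seen. Of the 10, 9 changed, but 4 of these involve HOXC8, HOXD1 or HOXD11, whose rise the filter favoured: HOXC8 to HOXC6, HOXC9 to HOXC8, HOXD3 to HOXD1 and HOXD11 to HOXD10. The log2 ratio of HOXC6 to HOXC5 moved from 1.01 ± 0.287 (SD, n = 9) to 2.39 ± 0.109, a difference of 1.38 (exact p = 0.00025, Benjamini-Hochberg adjusted 0.00042). HOXC5 fell against HOXC4 by 0.56 and HOXC9 fell against HOXC8 by 1.38 (adjusted exact p = 0.00042 for both).

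In HOXD, the ratio of HOXD3 to HOXD1 fell by 1.67 (adjusted exact p = 0.00042) and that of HOXD4 to HOXD3 by 0.45 (adjusted exact p = 0.00071). HOXD8 gained 0.80 on HOXD4 (0.00042), HOXD9 gained 0.35 on HOXD8 (0.0022) and HOXD11 gained 1.17 on HOXD10 (0.00042) by the same test. The ratio of HOXD10 to HOXD9 was -2.51 ± 0.211 at day 0 and -2.56 ± 0.172 at day 18 (SD, n = 9, exact p = 0.61), with differences of -0.30 in WT, -0.02 in C14R and 0.18 with the deletion. HOXC8 gained 0.65 on HOXC6 (adjusted exact p = 0.0022), but with a pseudocount of 1 that difference was -0.14 (adjusted p = 0.18), HOXC8 lying below 1 FPKM at day 0. With that pseudocount the difference for HOXD11 to HOXD10 was 0.10 (adjusted exact p = 0.21), and the ratio of HOXD10 to HOXD9 fell by 0.25 (0.0084). Each of the 9 changes had 1 direction in the 3 constructs, without a pseudocount.

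**Figure D4:**
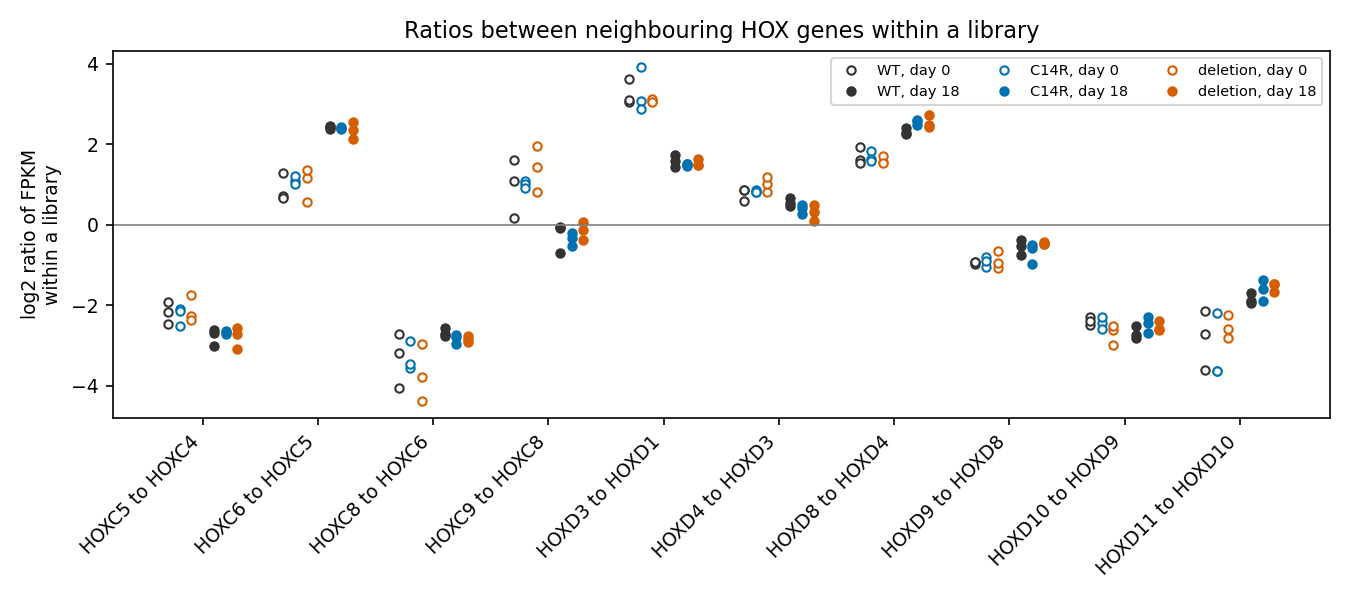
Log2 ratio of FPKM between neighbouring tested HOX genes within each library; open points are day 0, filled points day 18, and colours the construct. The points of HOXC6 to HOXC5 and of HOXD3 to HOXD1 separate by day, and those of HOXD10 to HOXD9 overlap.

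The genes next to these in the clusters were low. HOXD13, the last HOXD gene, which patterns digits, lay between 0.0325 and 0.228 FPKM at day 0 and between 0.431 and 0.886 at day 18, without overlap. HOXC10, a lumbar gene, was above 0 in 2 of the 9 libraries of day 0, at 0.0379 FPKM or less, and in 9 of 9 at day 18, at 0.0991 to 0.478. In the fit without filter, HOXD13 rose in WT (limma adjusted p = 0.0005), C14R (0.0018) and deletion libraries (0.00018), and HOXC10 did too (0.033, 0.013 and 0.0017). HOXD12 was listed at 0 in all libraries of day 0 and above 0 in 4 of 9 at day 18, up to 0.281 FPKM, and HOXC13 did not exceed 0.0601 FPKM.

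HOXA genes did not exceed 0.107 FPKM in any library. They were above 0 in 1 of 99 gene-by-library values at day 0 (HOXA5) and in 13 of 99 at day 18, and HOXA6, HOXA9 and HOXA11 were listed at 0 throughout. HOXB genes were above 0 in 1 of 90 values at day 0 (HOXB2) and in 17 of 90 at day 18, and HOXB1, HOXB4, HOXB5, HOXB8 and HOXB13 were listed at 0 throughout. From the steps of low values, day 0 libraries had 59.3% to 84.7% and day 18 libraries 82.1% to 100% of the depth of the deepest library, and the part of that difference in these counts was not tested.

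Most HOXB values at day 18 belonged to HOXB7 and HOXB9. HOXB9 had 0.215, 0.137 and 0.0977 FPKM in WT, 0.0211, 0.0787 and 0 in C14R, and 0.0787, 0.132 and 0.0238 with the deletion. HOXB7 had 0.309, 0.362 and 0 FPKM in WT, 0.089, 0.0994 and 0.0538 with the deletion, and was listed at 0 in C14R. Both were listed at 0 in the 9 libraries of day 0. In the fit without filter, unadjusted limma p-values of C14R against WT at day 18 were 0.0014 for HOXB9 and 0.0025 for HOXB7. After adjustment neither difference passed (limma adjusted p = 0.16 and 0.2).

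No HOX gene was called between constructs. Over the 12 tested genes, log2 differences from WT ran from -0.11 to 0.08 for C14R and from -0.26 to 0.18 for deletion at day 0, and from -0.17 to 0.24 and from -0.24 to 0.37 at day 18. By limma with adjustment over all genes, 0 passed in each of these 4 comparisons, in which 0%, 0.029%, 0.0363% and 0.0725% of all genes were called. At an unadjusted p under 0.05 there were 0 and 2 HOX genes at day 0 and 0 and 3 at day 18, where the shares of all genes were 2.81%, 6.22%, 11.1% and 11.4%. The interactions of construct and day also gave 0 genes, against 0% of all genes for C14R and 0.0145% for deletion, and at an unadjusted p under 0.05 they gave 0 and 3 genes against 5.73% and 7.36% of all.

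The tested HOX genes with an unadjusted p under 0.05 were all in comparisons of deletion with WT. The rise of HOXD10 exceeded that of WT by 0.47 (SE 0.13, unadjusted p = 0.0025, limma adjusted p = 0.39). At day 18 deletion libraries had 2.89, 2.46 and 3.40 FPKM of HOXD11, all above the 1.94, 2.18 and 1.91 of WT, a log2 difference of 0.37 (limma adjusted p = 0.34). At day 0 they had 5.15, 4.52 and 4.70 FPKM of HOXD3, all below the 5.31, 5.86 and 5.95 of WT (log2 difference -0.21, limma adjusted p = 0.76). The others were HOXD10 at day 0 (-0.26) and day 18 (0.21), HOXD4 at day 18 (-0.24), and the interactions of HOXD3 (0.21) and HOXD11 (0.43), with limma adjusted p-values from 0.39 to 0.76. For HOXD11 the C14R difference at day 18 was 0.24 and the C14R interaction 0.35 (limma adjusted p = 0.56 and 0.88).

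Other genes of the clusters, mostly noncoding, were largely at 0. Of 30 listed, among them the protein-coding PRAC1 and PRAC2 and the readthrough HOXA10-HOXA9, 25 were in the table and 2 were tested, and the microRNA genes MIR10A, MIR10B and MIR196A2 were listed at 0. HAGLR, a long noncoding RNA read antisense from the HOXD1 region, had 8.52, 8.65 and 8.55 FPKM in WT at day 0 and 19.5, 19.1 and 21.1 at day 18. It rose by 1.13 in WT, 1.18 in C14R and 1.27 with the deletion (limma adjusted p = 6.7e-12, 3.7e-12 and 1.2e-12). Its exons overlap those of HOXD1 by 158 bases and of HOXD3 by 134 on the opposite strand, and the use of strand in counting is not given in the sources used here. HOXD-AS2, whose exons overlap those of HOXD3 by 379 bases on the opposite strand, fell in WT by 0.56 (limma adjusted p = 0.02) and with the deletion by 0.83 (0.0015), and its difference of -0.30 in C14R did not pass (0.2).

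The counts over lists that follow stand against 38.2% of all tested genes higher and 34% lower in WT, and nothing particular to a list is read from them. Among 11 HOX cofactors, homeodomain proteins that bind DNA with HOX proteins or oppose them, 10 were tested, and 6 rose and 3 fell in WT. MEIS1, a HOX partner, rose from 21.9, 22.2 and 23.5 FPKM to 54.7, 60.1 and 56.7 (log2 change 1.30, limma adjusted p = 9e-14). PBX3, of the other partner family, rose by 1.17 (4.1e-11), and TGIF2, a repressor, fell by 1.39 (4.1e-12). Of 24 genes of retinoic acid metabolism and response 18 were tested, with 11 higher and 4 lower in WT. CYP26A1, which degrades retinoic acid, was listed at 0 in WT at day 0 and had 133.8, 119.8 and 122.5 FPKM at day 18 (limma adjusted p = 3.9e-18). CYP26A1 reached the filter only through its day 18 values, so that it had to differ between the days to be tested. Of 30 Polycomb and trithorax genes, which keep HOX clusters silent or active, 29 were tested, with 8 higher and 12 lower in WT. EZH2, the histone methyltransferase of Polycomb, fell by 0.97 (limma adjusted p = 1.5e-10). Of 15 CDX, EVX and related homeobox genes 0 reached the filter.

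HAND2, a noradrenergic marker of this line, lay between 262.7 and 306.6 FPKM in the 18 libraries. Of the noradrenergic markers 15 were tested, and 7 were higher and 6 lower in WT at day 18, shares near the 38.2% and 34% of all tested genes. All 11 tested markers of the mesenchymal type of neuroblastoma were lower at day 18 in each construct, and the 12 listed summed in WT to between 1114 and 1126 FPKM at day 0 and between 194 and 198 at day 18. Schwann and glial markers summed to 32.1 to 41.8 FPKM at day 0 and 35.5 to 41.2 at day 18, with SOX10 under 0.5 FPKM in each library. Of the fibroblast, endothelial and blood markers, 5 of 12 were tested, with 1 higher and 4 lower at day 18 in each construct. The part of these shifts in the HOX changes was not tested, and a change in the share of cells of a state and a change of RNA per cell cannot be told apart in bulk samples.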

How the data were processed

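The authors deposited FPKM, 1 value per gene symbol and library. The submitters' processing notes name TopHat2, STAR, Cufflinks 2.2.1 and hg38, without roles; annotation and use of strand are not given in the sources used here. FPKM carry no counts, so depth is known only relatively, from the most common ratio of low values between libraries.

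Columns were matched to samples by title. Tests used log2(FPKM + 1) for 13785 genes with a mean of at least 1 FPKM, in 1 fit of 6 group means over 18 libraries with limma 3.58.1 in R 4.3.3 (empirical Bayes with a mean-variance trend). Each of 9 comparisons was corrected by Benjamini-Hochberg over all tested genes, with a threshold of 0.05. The fit was tested on simulated data. Ratios of group means are of plain FPKM. Positions are from GENCODE release 29, which matched 39 of 39 HOX symbols.

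Members, lists and alternatives were chosen with earlier results of these data known. HOX genes could be named; of other lists, at most 4 called genes with the largest change in WT, besides defining markers and genes listed at 0, which were picked with their values seen. Alternatives were a pseudocount of 0.1, no filter, median-of-ratios scaling, leaving out small RNA genes with rescaling, the replicate number as a block, only the groups compared, and each library left out. Every column with values belonged to a sample (0 did not). Some items are not reported here.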

Additional observations from a re-analysis of the deposited data

How the results depend on the processing

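The counts of HOX genes called kept within 1.5 times their value under every alternative run: 11 to 15 in WT, 9 to 11 in C14R and 9 to 12 with the deletion for day 18 against day 0, and 0 in the 6 other comparisons. The fit without filter counted calls over every HOX gene with a value above 0, and the other fits over the 12 tested genes. Its counts are therefore of a larger set and do not show that the same genes kept their calls. Among single genes, HOXC5 changed sign in C14R with median-of-ratios scaling (-0.013), and leaving out 1 C14R library at a time gave -0.068 (without replicate 2 of day 0) to 0.063 (without replicate 3 of day 0). With the deletion it did so with small RNA genes left out (0.017). HOXC9 passed in C14R (adjusted p = 0.014) and deletion libraries (0.0061), and HOXD4 with the deletion (0.0024), with small RNA genes left out, by limma. The ratio of HOXC8 to HOXC6 turned to -0.14 with a pseudocount of 1. With the replicate block the calls were 11 in WT, 10 in C14R and 9 with the deletion, as without it; 4 of 27 same-numbered pairs had a correlation of deviations over 0.1 (range -0.36 to 0.17), and 7 of 27 correlated best with their own number. Values under 1 FPKM rest on few fragments, and C14R replicate 1 of day 18 had the lowest correlations with its group (0.984 and 0.986). The causes were not tested.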
